A study of Mus musculus with 7 samples.

Results

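Oxidative phosphorylation genes encode the 5 complexes of the inner mitochondrial membrane, and they were described here in mouse ovaries across 3 groups. Members were the protein coding rows whose symbol starts with mt-, Nduf, Uqcr, Cox4, Cox5, Cox6, Cox7, Cox8 or Atp5, or is Sdha, Sdhb, Sdhc, Sdhd or Cyc1, with Cox8b left out. The rule found 106 of the 34866 genes in the deposited table. Of these, 13 are encoded by the mitochondrial genome and 93 by the nucleus, and the nuclear ones comprise 84 subunit genes, 8 complex I assembly factors (Ndufaf1 to Ndufaf8) and Atp5s. Counting assembly factors and Atp5s with their complexes, 51 belong to complex I, 4 to complex II, 10 to complex III, 22 to complex IV and 19 to complex V.

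The 7 bulk RNA libraries came from ovaries of mice aged 8 to 12 weeks. There were 2 of fertile Abcg5/g8 knockout mice fed VOFD (KO VOFD), 3 of infertile Abcg5/g8 knockout mice fed CD (KO CD) and 2 of fertile wild type mice fed CD (WT CD). ABCG5 and ABCG8 form a transporter that moves sterols out of cells. The sources used here spell out neither diet, name no strain and do not say how the knockout was made, and they describe each ovary as homogenised by itself without saying that every library is a separate animal. The p-values below thus rest on how far these libraries differ within a group, and some of that may be technical. Abcg5 and Abcg8 were at 0.212 TPM or less in every library, too low for their levels to check the genotype labels.

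Electrons from NADH enter at complex I and those from succinate at complex II, pass through complex III and cytochrome c to complex IV, and the proton gradient that complexes I, III and IV build drives ATP synthesis at complex V. Complexes I, III, IV and V combine subunits from both genomes, whereas complex II is wholly nuclear encoded. Oocytes and steroid-making cells of the ovary are rich in mitochondria, and steroid synthesis begins at a mitochondrial enzyme.

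Values are TPM, a share of all transcripts after scaling by transcript length, and each library sums to the same total. Levels can be compared between genes only roughly, given the near-identical copies and the length trends described below. TPM keeps no sequencing depth, so the depth of these libraries is unknown. Fold changes are differences in mean log2(TPM + 1), tested by limma in all 15487 genes with at least 1 TPM in at least 2 libraries, with Benjamini-Hochberg (BH) adjusted p under 0.05 as the threshold. Of the 106 members 104 passed that filter. Cox7b2 was listed at 0 in every library, and Cox8c, a testis isoform, reached at most 0.68 TPM.

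Several libraries stood apart. Markers of granulosa cells and oocytes (Foxl2, Gdf9 and Zp3 among them) and Hsd3b1 of the luteal list were detected in all 7. Some other luteal markers were low in every KO CD library. Ptgfr was at 3.12, 3.22 and 6.17 TPM there, against 193 and 133 TPM in KO VOFD and 129 and 259 TPM in WT CD. Star (603, 93.7 and 61.9 TPM in KO CD) and Cyp11a1 (2481, 250 and 602 TPM) were lowest in KO CD libraries 2 and 3. Both had their highest value of all 7 libraries in KO CD library 1. Parm1 was at 19.7, 6.20 and 12.1 TPM in KO CD, against 4.34 and 5.82 TPM in WT CD. KO CD library 1 had the lowest sum of the 10 granulosa markers (1760 TPM, against 2452 to 6337 TPM in the other libraries) and of the 12 oocyte markers (274 TPM, against 510 to 728 TPM). KO CD library 3 had 419 TPM over the 6 oviduct epithelium markers, against 22.2 to 72.9 TPM elsewhere. The 11 adipose markers summed to 520 and 1164 TPM in KO VOFD, 1242 to 2936 TPM in KO CD, and 221 and 653 TPM in WT CD, and the 6 erythroid markers to 689 and 741, 1268 to 3050, and 440 and 835 TPM in the same order of groups. Of the 10 luteal markers limma called 2 lower in KO CD than in WT CD, 2 higher in KO VOFD than in KO CD and 3 lower in infertile than in fertile ovaries, and 1 erythroid marker was called higher in infertile than in fertile ovaries. The luteal list summed to 7383 and 8861 TPM in KO VOFD, 4763 to 8728 TPM in KO CD, and 7349 and 9721 TPM in WT CD. Hsd3b1 made up most of that sum, at 3856 to 5326 TPM over the 7 libraries. As a mean of log2(TPM + 1), the luteal list was at 7.93 and 7.77 in KO VOFD, 6.67, 5.18 and 5.78 in KO CD, and 7.54 and 8.24 in WT CD. Of its 10 markers, 1 had a positive log2 fold change in KO CD against WT CD. In whole ovary RNA, fewer cells of a type and less RNA per cell cannot be told apart, and the part of these markers in the results below was not tested.

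No member passed the threshold in any comparison. In KO CD against WT CD, limma called 0 of 104 members, where it called 17 of all genes (0.110%; 0.0581% higher and 0.0517% lower), and 4 members had an unadjusted p under 0.05, against 10.3% of all genes. For KO VOFD against KO CD the member count was 0 where 7 genes (0.0452%; 0.0387% higher and 0.00646% lower) were called, with 3 members at unadjusted p under 0.05, against 7.94% of all genes. KO VOFD against WT CD gave 0 members, 2 genes (0.0129%) and no member at unadjusted p under 0.05, against 1.99%. Infertile (KO CD) against fertile (KO VOFD and WT CD together) gave 0 members, 38 genes (0.245%; 0.0581% higher and 0.187% lower) and 6 members at unadjusted p under 0.05, against 15.4%. A missed threshold does not show equal levels, and the 95% confidence interval of the log2 fold change lay within 1 in either direction for 100, 99, 102 and 102 of the 104 members in these 4 comparisons.

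Groups that did not overlap were counted next. In KO CD against WT CD, 7 members lay higher in every KO CD library and 16 lower (20.6% and 5.95% of all genes). The counts were 14 higher and 19 lower for KO VOFD against KO CD (8.68% and 17.9% of all genes), 14 and 30 for KO VOFD against WT CD (24.6% and 9.88%), and 4 and 7 for infertile against fertile (11.2% and 3.76%). All genes tested had a median log2 fold change of 0.19 in KO CD against WT CD, and after median-of-ratios scaling that median was -0.00, a shift of all values together. For the other comparisons the median of all genes was -0.10 in KO VOFD against KO CD, 0.08 in KO VOFD against WT CD and 0.15 in infertile against fertile, and the medians of complexes and lists given below stand beside these values. The nuclear subunits of complexes I to V, given below with their medians as deposited, had medians of -0.25, -0.19, -0.32, -0.32 and -0.28 in KO CD against WT CD under that scaling, which turned the sign for complex II. After quantile normalisation the medians of complexes I and II in KO VOFD against KO CD turned to 0.04 and 0.03.

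The 13 mitochondrial genes are transcribed as long precursors from a circular genome that carries no introns, 12 of them from one strand and mt-Nd6 from the other. They carried far more TPM than the nuclear subunits. Their share of TPM was 16.8% and 18.3% in KO VOFD, 17.3%, 15.4% and 11.7% in KO CD, and 17.4% and 16.7% in WT CD, so that KO CD library 3 was the lowest and all groups overlapped. The 84 nuclear subunit genes together took 2.62% and 2.68% in KO VOFD, 2.84%, 2.55% and 2.34% in KO CD, and 2.95% and 2.66% in WT CD. These shares overlapped between all groups, again with KO CD library 3 at the bottom.

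The ratio of mitochondrial to nuclear subunit TPM averaged 6.61 ± 0.294 in KO VOFD (SD, n = 2), 5.71 ± 0.617 in KO CD (n = 3) and 6.09 ± 0.288 in WT CD (n = 2). KO VOFD libraries, at 6.40 and 6.82, lay above both the KO CD libraries (6.09, 6.05 and 5.00) and the WT CD libraries (5.89 and 6.30). No p is given for these sums over members. The sums leave out the near-identical copies described below, such as Gm29216 of mt-Co1 (4713 TPM in KO VOFD library 1 and 6045 TPM in WT CD library 2). How far the order of the groups depends on these copies was not tested.

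**Figure D1:**
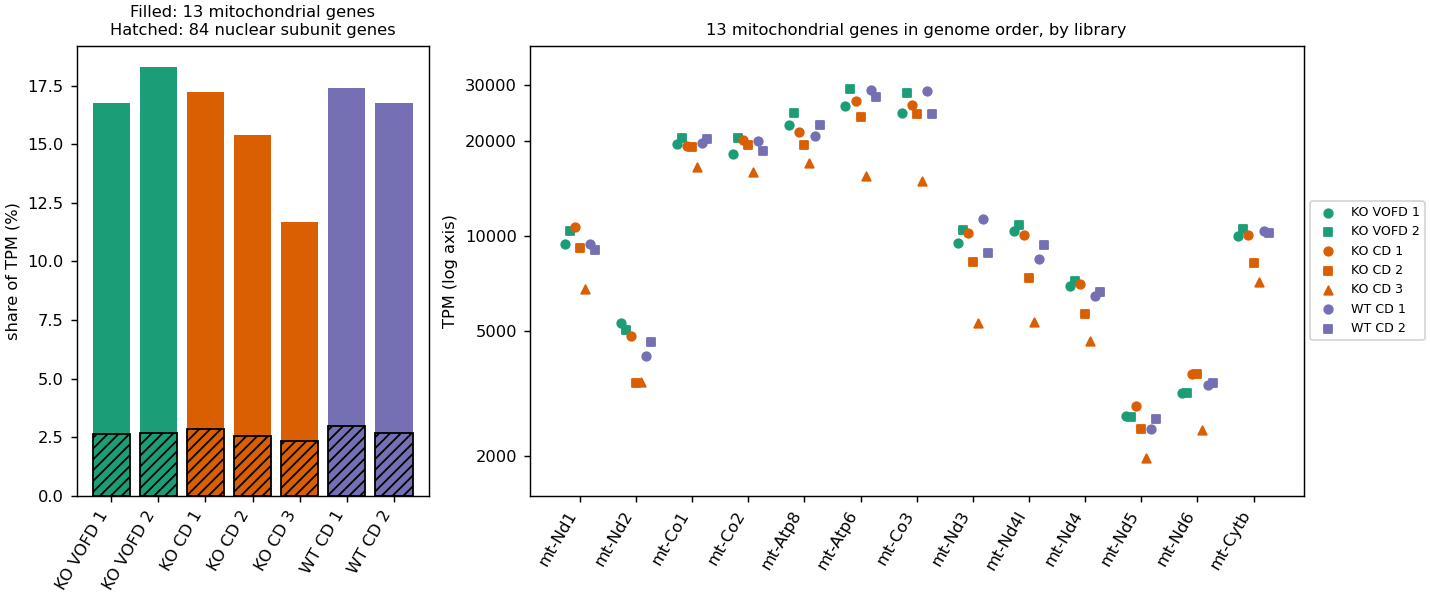
Left, share of TPM (%) in each library, filled bars for the 13 mitochondrial genes and hatched bars drawn over them for the 84 nuclear subunit genes. Right, TPM of each mitochondrial gene on a log axis, in genome order and by library; KO CD library 3 (triangle) is lowest for 12 of the 13 genes, and mt-Atp6 and mt-Co3 have the highest means.

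Within the mitochondrial genome, the order of mean levels over the 7 libraries was mt-Atp6, mt-Co3, mt-Atp8, mt-Co1 and mt-Co2, which encode complex V and IV subunits, then mt-Cytb of complex III, and then the complex I genes mt-Nd1, mt-Nd3, mt-Nd4l, mt-Nd4, mt-Nd2, mt-Nd6 and mt-Nd5. The top member, mt-Atp6, had 25726 and 29249 TPM in KO VOFD, 26728, 23848 and 15474 TPM in KO CD, and 28972 and 27484 TPM in WT CD. Its KO CD libraries all lay below both WT CD libraries (log2 fold change -0.40, SE 0.23, BH adjusted p from limma = 0.536), with KO CD library 3 far below the rest. The lowest, mt-Nd5, had 2687 and 2666 TPM in KO VOFD, 2883, 2433 and 1979 TPM in KO CD, and 2437 and 2622 TPM in WT CD. KO CD overlapped both other groups, and KO VOFD lay just above WT CD. Neighbours in this order mostly overlapped in their values over libraries, such as mt-Co1 (16471 to 20436 TPM) and mt-Co2 (15909 to 20427 TPM).

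All 13 mitochondrial genes had a negative log2 fold change in KO CD against WT CD, from -0.40 to -0.07 with a median of -0.19, beside 0.19 for all genes; the count of negative values was 9 of 13 without KO CD library 3 (median -0.05) and 7 of 13 after quantile normalisation. In KO VOFD against KO CD, 12 of 13 were positive with a median of 0.29, beside -0.10 for all genes, with 0.12 without KO CD library 3 and 0.04 after quantile normalisation. KO VOFD against WT CD had a median of 0.01, which became -0.09 under median-of-ratios scaling. KO CD is shared by the first pair of comparisons, so their opposite signs are not independent. KO CD library 3 had the lowest value of all 7 for 12 of 13 genes, and KO CD library 2 for mt-Nd2.

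The spread between the lowest and highest library was 2.15-fold for mt-Nd3, 2.03-fold for mt-Nd4l, 1.92-fold for mt-Co3 and 1.89-fold for mt-Atp6, against 1.24-fold for mt-Co1 and 1.28-fold for mt-Co2. In KO VOFD against KO CD, mt-Nd2 had the smallest p of the 13, with 5294 and 5013 TPM in KO VOFD and 4794, 3421 and 3439 TPM in KO CD (log2 fold change 0.43, SE 0.18, BH adjusted p from limma = 0.619). The groups of mt-Nd2 did not overlap, and the WT CD libraries, at 4169 and 4616 TPM, lay within the range of KO CD. mt-Nd4l, another complex I gene, was at 10322 and 10842 TPM in KO VOFD and at 10014, 7349 and 5331 TPM in KO CD, also without overlap (log2 fold change 0.53, adjusted p = 0.623). mt-Cytb, the cytochrome b of complex III, was at 10018, 8179 and 7131 TPM in KO CD, against 10350 and 10184 TPM in WT CD (log2 fold change -0.30, adjusted p = 0.531).

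mt-Nd6, the gene on the other strand, took 1.89% and 1.73% of mitochondrial TPM in KO VOFD, 2.11%, 2.37% and 2.07% in KO CD, and 1.93% and 2.04% in WT CD. Every KO CD library thus lay above the 4 fertile ones, at 2.07% against 2.04% at the closest, and the shares of mt-Nd1 and mt-Co2 had the same order. mt-Nd6 overlaps mt-Nd5 on the opposite strand by 14 bases, and the sources used here do not say whether counting used strand.

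mt-Atp8 and mt-Atp6 share 43 bases in different reading frames, shown here because reads from them belong to both genes. The stretch is on the plus strand of the mitochondrial genome (GRCm38 chrM:7912-7984), with the shared coding bases in capitals.
mt-Atp8 and mt-Atp6 overlap: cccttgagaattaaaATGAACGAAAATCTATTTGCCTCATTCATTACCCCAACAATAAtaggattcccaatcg
The capitals open with the start codon of mt-Atp6 and close with the stop codon of mt-Atp8. The ratio of mt-Atp6 to mt-Atp8 TPM was 1.15 and 1.20 in KO VOFD, 1.25, 1.23 and 0.908 in KO CD, and 1.40 and 1.23 in WT CD. KO CD library 3 alone had more TPM for mt-Atp8, whose annotated length is 204 bases, than for mt-Atp6, of 681 bases.

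The nuclear encoded genes by complex come next. Complex I is the NADH dehydrogenase, with 36 nuclear subunit genes and 7 mitochondrial ones. Its nuclear subunits had a median log2 fold change of -0.03 in KO CD against WT CD and -0.04 in KO VOFD against KO CD, and their levels ran from 23.7 TPM for Ndufa11 to 538 TPM for Ndufa6 as means of all libraries. Ndufa10 and Ndufc2, both accessory subunits of the membrane arm, had the smallest p-values of any member in KO CD against WT CD.

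Ndufa10 (chromosome 1, 92439010 to 92473860) was at 60.1 and 62.8 TPM in KO VOFD, 84.4, 82.1 and 106 TPM in KO CD, and 61.7 and 67.9 TPM in WT CD. All KO CD libraries lay above all 4 fertile ones, and the fertile groups overlapped each other. The log2 fold change was 0.47 in KO CD against WT CD (SE 0.17, adjusted p = 0.420), -0.55 in KO VOFD against KO CD (SE 0.17, adjusted p = 0.509) and 0.51 in infertile against fertile (SE 0.13, BH adjusted p from limma = 0.159). Its unadjusted p in infertile against fertile, 0.00337, was the smallest of all members there.

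Ndufc2 (chromosome 7, 97400003 to 97407802) was at 404 and 362 TPM in KO VOFD, 376, 316 and 281 TPM in KO CD, and 451 and 469 TPM in WT CD. KO CD lay below WT CD without overlap (log2 fold change -0.51, SE 0.16, BH adjusted p from limma = 0.373), while KO VOFD and KO CD overlapped. Ndufb2, another accessory subunit, was at 267, 244 and 166 TPM in KO CD, against 335 and 282 TPM in WT CD (log2 fold change -0.47, adjusted p = 0.495). Ndufs7, a core subunit of the iron-sulphur chain, was at 108, 106 and 122 TPM in KO CD, against 94.1 and 94.0 TPM in KO VOFD and 93.9 and 88.2 TPM in WT CD, a higher value in every infertile library (log2 fold change 0.27, adjusted p = 0.298 in infertile against fertile). Ndufb8 was at 187 and 200 TPM in KO VOFD, against 270, 209 and 242 TPM in KO CD (log2 fold change -0.30, adjusted p = 0.672).

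The 8 assembly factors, which build complex I and leave it, were lower than most subunits, from 12.1 TPM for Ndufaf6 to 59.4 TPM for Ndufaf2. Their median log2 fold change was -0.00 in KO CD against WT CD and 0.08 in KO VOFD against KO CD. Ndufaf2 was at 54.9, 53.5 and 54.8 TPM in KO CD, against 65.6 and 68.5 TPM in WT CD, without overlap (log2 fold change -0.30, adjusted p = 0.529). Ndufaf6 was lower in both KO VOFD libraries than in all 3 KO CD libraries (log2 fold change -0.35, adjusted p = 0.684).

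Complex II is succinate dehydrogenase, which also works in the tricarboxylic acid cycle. Its 4 genes encode the flavoprotein Sdha, the iron-sulphur subunit Sdhb and the membrane anchors Sdhc and Sdhd, and their median log2 fold change was 0.02 in KO CD against WT CD. Sdhb had 196 and 220 TPM in KO VOFD, 246, 182 and 136 TPM in KO CD, and 274 and 230 TPM in WT CD. Sdha had 144 and 139 TPM in KO VOFD, 151, 149 and 179 TPM in KO CD, and 122 and 158 TPM in WT CD. KO CD library 3 thus had the lowest Sdhb and the highest Sdha of the 7 libraries, and neither gene separated KO CD from WT CD.

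Complex III passes electrons to cytochrome c. Its 9 nuclear genes had a median log2 fold change of -0.11 in KO CD against WT CD and 0.05 in KO VOFD against KO CD. Uqcrh, the small hinge subunit and the most abundant nuclear member of the complex, was at 827 and 827 TPM in KO VOFD, 733, 741 and 655 TPM in KO CD, and 929 and 774 TPM in WT CD. All infertile libraries lay below all fertile ones (log2 fold change -0.24, SE 0.11, BH adjusted p from limma = 0.331). The core protein gene Uqcrc1 was at 94.1 and 116 TPM in KO VOFD, 122, 114 and 171 TPM in KO CD, and 97.4 and 116 TPM in WT CD, and Cyc1, the cytochrome c1 gene, at 105 and 115, 117, 117 and 173, and 118 and 116 TPM in that order. In both genes KO CD library 3 was the highest. The other 6 libraries lay close together for Cyc1 (105 to 118 TPM) and ran from 94.1 to 122 TPM for Uqcrc1.

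Complex IV, cytochrome c oxidase, reduces oxygen and has isoforms that differ between tissues. Its 17 tested nuclear subunit genes had a median log2 fold change of -0.12 in KO CD against WT CD and 0.06 in KO VOFD against KO CD. Cox6c was, as listed, the most abundant nuclear member of all, at a mean of 1532 TPM. It was at 1694 and 1699 TPM in KO VOFD, 1499, 1404 and 869 TPM in KO CD, and 1923 and 1639 TPM in WT CD. Every infertile library lay below every fertile one (log2 fold change -0.50, SE 0.18, BH adjusted p from limma = 0.262), with KO CD library 3 the lowest. Cox7c was at 958, 802 and 660 TPM in KO CD, against 1166 and 960 TPM in WT CD (log2 fold change -0.41, adjusted p = 0.493). Its KO CD libraries overlapped KO VOFD, at 917 and 897 TPM. Cox5b went the other way, at 364, 339 and 368 TPM in KO CD, against 337 and 275 TPM in WT CD (log2 fold change 0.23, adjusted p = 0.555).

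Among isoform pairs, the common form was the abundant one throughout. Cox4i1 averaged 865 TPM over the 7 libraries. Cox4i2, the isoform known from lung and from low oxygen, was at 9.39 and 13.6 TPM in KO VOFD, 5.66, 6.02 and 7.50 TPM in KO CD, and 14.5 and 8.13 TPM in WT CD. All infertile libraries were below all fertile ones, and this was the largest fold change of a member in that comparison (log2 fold change -0.72, SE 0.22, BH adjusted p from limma = 0.216). In KO VOFD against KO CD its log2 fold change was 0.74 (SE 0.29, adjusted p = 0.598). The 7 pericyte and smooth muscle markers, cells in which Cox4i2 is known, summed to 326 and 331 TPM in KO VOFD, 355 to 526 TPM in KO CD, and 344 and 422 TPM in WT CD. Acta2, a smooth muscle actin, made up most of that sum, at 206 to 362 TPM over the 7 libraries. The pericyte markers differed among themselves: Higd1b was at 3.22 and 4.53 TPM in KO VOFD, 2.28, 2.31 and 3.54 TPM in KO CD, and 4.83 and 4.40 TPM in WT CD, and Rgs5 was at 56.6 and 36.6 TPM in KO VOFD, 40.0, 35.9 and 24.3 TPM in KO CD, and 32.7 and 56.4 TPM in WT CD. Cspg4 was at 2.09 and 2.13 TPM in KO VOFD, 3.14, 3.19 and 5.32 TPM in KO CD, and 1.87 and 1.97 TPM in WT CD. Higd1b was thus lowest in KO CD libraries 1 and 2 and Rgs5 in KO CD library 3 alone, while Cspg4 was higher in every KO CD library. Of the whole list of 7, 5 had a positive log2 fold change in KO CD against WT CD (median 0.19). In infertile against fertile 5 were positive as well (median 0.33). The part of these cells in the Cox4i2 level was not tested.

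Ndufa4l2, the low oxygen counterpart of Ndufa4, was at 5.30 and 6.81 TPM in KO VOFD, against 4.58, 3.17 and 3.82 TPM in KO CD (log2 fold change 0.54, SE 0.24, adjusted p = 0.623). Ndufa4 itself averaged 709 TPM and ran from 468 TPM in KO CD library 3 to 949 TPM in KO CD library 1. Cox7a1, the heart and muscle isoform, was at 10.9 and 19.4 TPM in KO VOFD, 27.1, 26.1 and 14.6 TPM in KO CD, and 15.8 and 15.8 TPM in WT CD, beside 446 TPM on average for Cox7a2. KO CD libraries 1 and 2 were high for it, and they also had the largest sums of adipose markers. Among the brown fat markers of that list, Ucp1 was at 0.0403 TPM or less in every library. Elovl3 reached at most 0.761 TPM, and Cidea ran from 0.308 to 1.12 TPM. The part of fat cells in the Cox7a1 level was not tested. Cox6a2, the muscle form, stayed between 0.77 and 1.97 TPM beside 555 TPM for Cox6a1, and Cox6b2 between 33.0 and 50.3 TPM beside 577 TPM for Cox6b1. Cox8a averaged 535 TPM and Cox7b 240 TPM.

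Complex V is the ATP synthase. Its 16 nuclear subunit genes had a median log2 fold change of -0.07 in KO CD against WT CD, 0.01 in KO VOFD against KO CD and -0.09 in KO VOFD against WT CD. Atp5b, the catalytic beta subunit and its most abundant nuclear member, had mean levels of 851 ± 15.7 TPM in KO VOFD (SD, n = 2), 985 ± 74.8 TPM in KO CD (n = 3) and 909 ± 86.3 TPM in WT CD (n = 2). Its alpha partner Atp5a1 was at 357 and 369 TPM in KO VOFD, 413, 405 and 476 TPM in KO CD, and 350 and 386 TPM in WT CD. The KO CD values of Atp5a1 were above all fertile ones (log2 fold change 0.24, SE 0.11, BH adjusted p from limma = 0.332 in infertile against fertile).

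Of the 16 nuclear subunit genes 6 had a positive and 10 a negative log2 fold change in KO CD against WT CD. Atp5l, subunit g of the membrane part, was at 657, 626 and 488 TPM in KO CD, against 783 and 674 TPM in WT CD (log2 fold change -0.31, adjusted p = 0.529). Atp5e, the epsilon subunit, was at 719, 613 and 594 TPM in KO CD, against 898 and 706 TPM in WT CD, with overlap. Of the 3 genes for the c ring, as listed, Atp5g3 was the most abundant at 828 TPM on average, then Atp5g1 at 219.5 TPM and Atp5g2 at 36.9 TPM. The place of Atp5g2 depends on how reads were split with its identical copy Gm10175. Together they made 584 to 689 TPM, against 202 to 261 TPM for Atp5g1. Atp5s, which is related to the synthase but is no subunit, ran from 17.6 to 25.7 TPM.

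**Figure D2:**
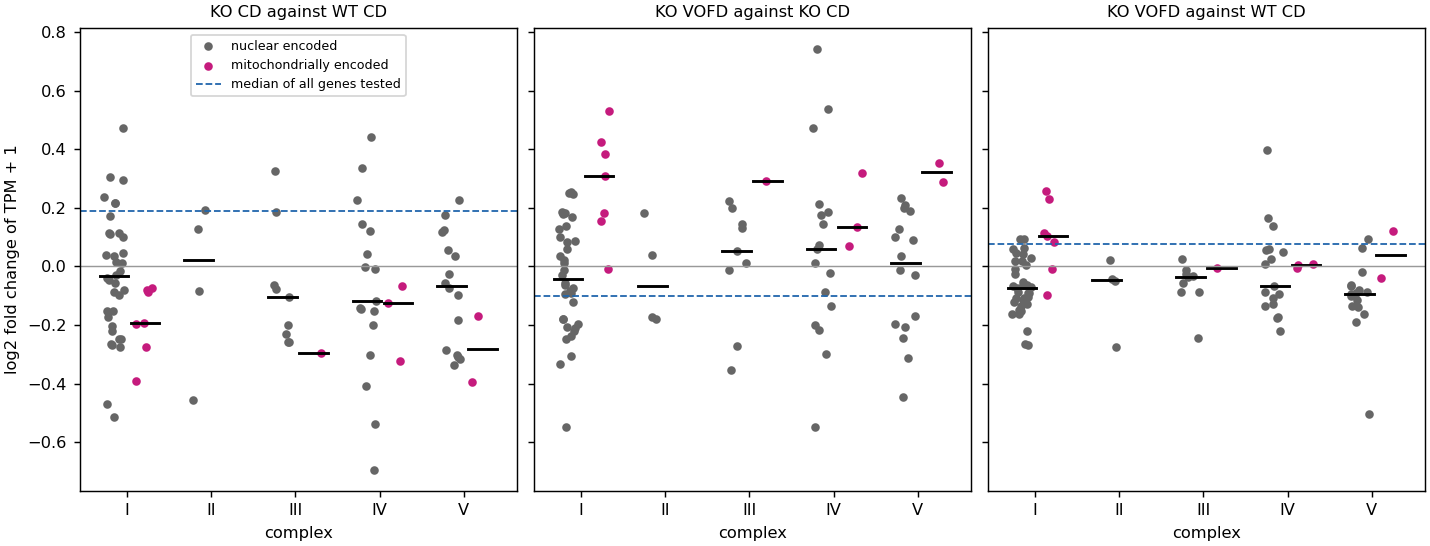
Log2 fold change of TPM + 1 for each tested subunit gene by complex, in 3 comparisons. Grey points are nuclear and magenta points mitochondrially encoded genes, black bars are their medians and the dashed line the median of all 15487 genes; the magenta medians lie below 0 in KO CD against WT CD and above 0 in KO VOFD against KO CD, and no point passed the threshold.

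Transcript length went along with which nuclear subunits stood high or low in single libraries. Nuclear subunit transcripts are short, with a median of 849.5 bases, against 2029.5 bases in 2470 other protein coding genes with a mean of at least 50 TPM. In KO CD library 3 the median deviation from the 7-library median was -0.27 on the log2 scale for the 19 subunits of up to 600 bases, -0.10 for 30 of over 600 and up to 1000 bases, -0.02 for 25 of over 1000 and up to 2000 bases and 0.28 for 8 longer ones. WT CD library 1 ran the other way, with 0.14, 0.15, 0.04 and -0.14, and the last class of each holds only 8 genes. The same classes of the other protein coding genes had -0.25, -0.10, 0.11 and 0.28 in KO CD library 3 and 0.16, 0.09, -0.02 and -0.19 in WT CD library 1.

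Across the 82 tested nuclear subunits, Pearson's r between the deviation and log2 length was 0.36 in KO CD library 3 and -0.42 in WT CD library 1, beside 0.32 and -0.46 in the other genes, and between -0.19 and 0.21 for the subunits in the other 5 libraries. Genes of 1 library share its depth and RNA quality, so these are descriptions. KO CD library 3 had the lowest value of all 7 libraries in 34 of 82 nuclear subunits and the highest in 21, and WT CD library 1 had the highest in 30. KO CD against WT CD had medians of -0.18 for subunits of up to 600 bases, -0.02 for those of over 600 and up to 1000 bases and -0.04 for longer ones. How far length or RNA quality accounts for the member differences was not tested.

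**Figure D3:**
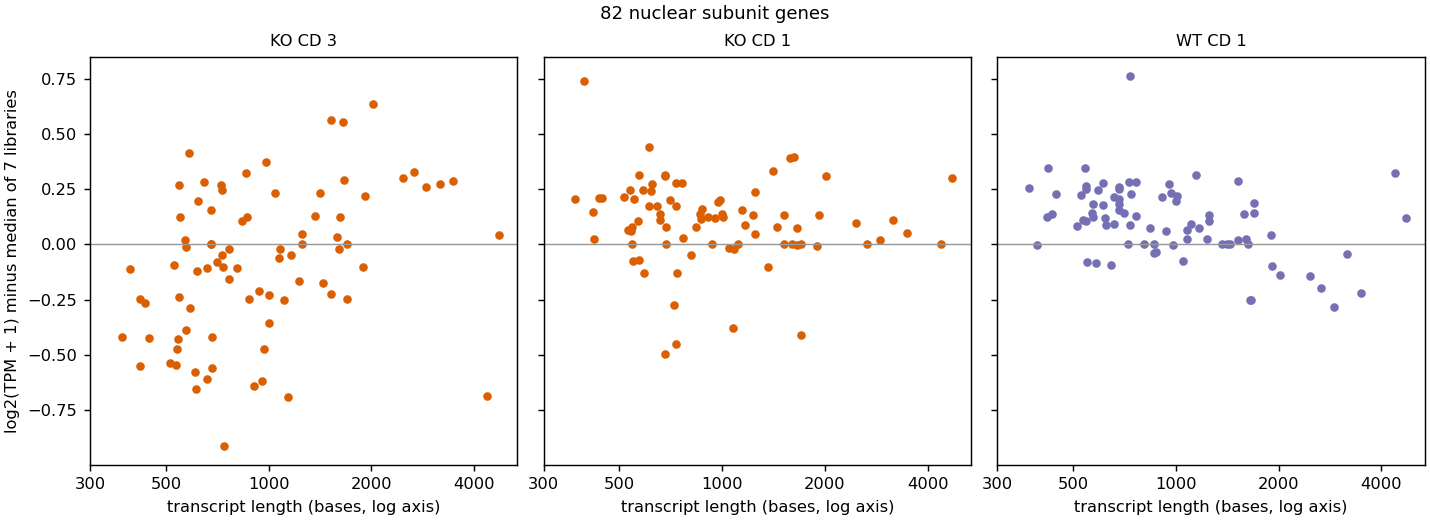
Deviation of log2(TPM + 1) from the median of the 7 libraries against transcript length in bases (log axis), for the 82 tested nuclear subunit genes in 3 libraries. Short transcripts lie low in KO CD library 3 (r = 0.36), r is -0.12 in KO CD library 1, and short transcripts lie high in WT CD library 1 (r = -0.42).

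Of all members, 11 had near-identical copies among the annotated pseudogenes with a mean of at least 1 TPM (15 copies with at least 95% identity). The authors' counting could split reads between a member and its copies. For Cox7a2l, a complex IV related protein that links complexes III and IV, the copy separated genotypes. Cox7a2l itself (chromosome 17, 83501918 to 83517330, minus strand) was at 317 and 329 TPM in KO VOFD, 243, 338 and 304 TPM in KO CD, and 323 and 312 TPM in WT CD, with overlap. Its processed pseudogene Gm6969 (chromosome 12, 24638669 to 24639010, minus strand, 97.7% identical over 342 bases) is not a member and was chosen after its values were seen. Gm6969 was at 229 and 205 TPM in KO VOFD, 152, 239 and 224 TPM in KO CD, and 2.37 and 3.92 TPM in WT CD.

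Gm6969 was higher in KO CD than in WT CD by 5.64 on the log2 scale (SE 0.25, BH adjusted p from limma = 3.6e-05) and in KO VOFD than in WT CD by 5.74 (SE 0.27, adjusted p = 9.9e-05), while KO VOFD against KO CD gave 0.11 (adjusted p = 0.917). Cox7a2l and Gm6969 together made 546 and 535 TPM in KO VOFD, 395, 577 and 528 TPM in KO CD, and 325 and 316 TPM in WT CD. All 5 knockout libraries lay above both wild type ones. The sum did not pass the threshold in KO CD against WT CD (log2 fold change 0.62, adjusted p = 0.335) or in KO VOFD against WT CD (0.75, adjusted p = 1).

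Both sequences are printed around the place where the reference transcripts of these loci differ in length. They are in transcript direction, from GENCODE M21 transcripts of GRCm38, and the capitals mark the bases at the difference.
Cox7a2l: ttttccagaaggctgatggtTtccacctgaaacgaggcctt
Gm6969: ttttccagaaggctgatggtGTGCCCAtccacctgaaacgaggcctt
Gm6969 has 6 more bases here, and 1 other mismatch in its whole length. C57BL/6 mice, from which the reference comes, are known for a short Cox7a2l protein that lacks a pair of amino acids present in other strains. On chromosome 17 Cox7a2l lies 1.14 Mb from Abcg5 and 1.16 Mb from Abcg8. Which locus the reads assigned to Gm6969 came from was not tested.

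**Figure D4:**
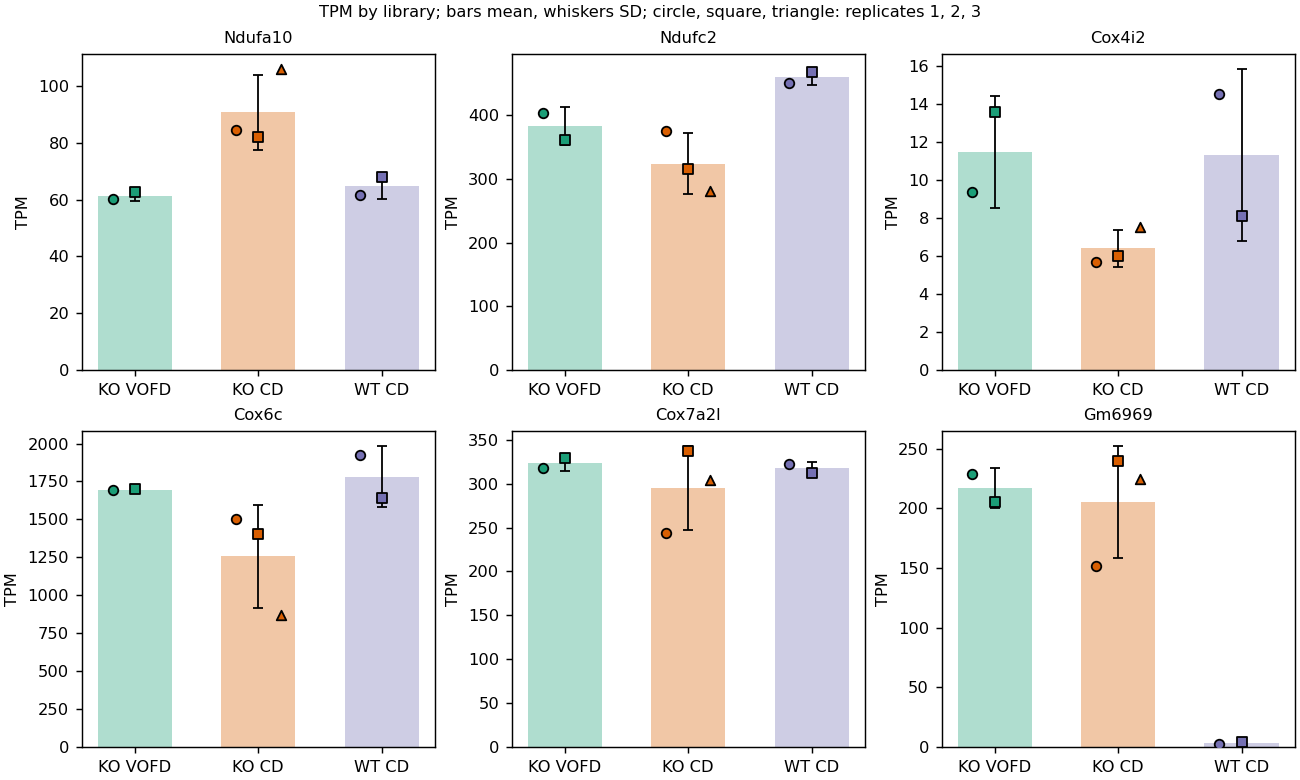
TPM of 5 members and of the pseudogene Gm6969 by library, with bars for group means, whiskers for SD and symbols for replicates 1 (circle), 2 (square) and 3 (triangle). KO CD lies above the other groups for Ndufa10, below WT CD for Ndufc2, and below both other groups for Cox4i2 and Cox6c; Gm6969 is at 152 TPM or more in knockout libraries and at 3.92 TPM or less in WT CD.

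For some members a copy held most of the TPM. Atp5g2 was at 22.6 to 45.1 TPM while its identical copy Gm10175 was at 561 to 644 TPM, and Ndufb4 at a mean of 57.5 TPM while Ndufb4c was at 319 to 593 TPM. The mitochondrial genes have copies in the nucleus too, and Gm29216, which matches mt-Co1 at 99.8%, was listed at 4713 to 8363 TPM. Gm28661, a copy of mt-Co2, was at 577 TPM in KO CD library 3 and at 0.33 TPM or less in the other 6. The level of these members and their rank among the others are therefore uncertain. Summing each with its copies left 0 members called in all 4 comparisons.

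Nuclear respiratory factor 1 and the ETS factor GABPA are known regulators of nuclear respiratory genes, so promoters were read for their motifs. The RefSeq promoter table (GRCm38.p6, 250 bases before to 50 after the start) held 73 of the 93 nuclear members. The NRF1 motif, the half-site GCGCA followed directly by its reverse complement TGCGC and so the same on both strands, stood in 7 of 73 (9.59%), against 290 of 27025 genes (1.07%). The ETS motif CCGGAAG, on either strand, stood in 18 of 73 (24.7%), against 2683 of 27025 (9.93%), and 2 members had both. A match is only a description of these letters.

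Printed are Ndufa10, the member of smallest p in infertile against fertile, Uqcrc1 with the NRF1 motif, and Cox6a1 with both, with motifs in capitals (Ndufa10 chr1:92473709-92474008, minus strand; Uqcrc1 chr9:108936398-108936697, plus strand; Cox6a1 chr5:115348909-115349208, minus strand).
Ndufa10 promoter: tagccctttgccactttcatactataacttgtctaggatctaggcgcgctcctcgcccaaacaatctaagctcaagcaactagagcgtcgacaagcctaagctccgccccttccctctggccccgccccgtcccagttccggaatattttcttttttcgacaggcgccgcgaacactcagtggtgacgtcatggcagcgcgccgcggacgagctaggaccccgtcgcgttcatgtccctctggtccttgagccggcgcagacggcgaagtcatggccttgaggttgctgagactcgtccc
Uqcrc1 promoter: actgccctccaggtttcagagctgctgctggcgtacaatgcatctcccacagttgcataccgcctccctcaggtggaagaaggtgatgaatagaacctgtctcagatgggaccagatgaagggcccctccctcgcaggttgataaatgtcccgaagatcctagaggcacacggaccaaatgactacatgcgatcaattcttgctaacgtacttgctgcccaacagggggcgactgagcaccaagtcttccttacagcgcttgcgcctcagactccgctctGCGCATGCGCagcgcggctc
Cox6a1 promoter: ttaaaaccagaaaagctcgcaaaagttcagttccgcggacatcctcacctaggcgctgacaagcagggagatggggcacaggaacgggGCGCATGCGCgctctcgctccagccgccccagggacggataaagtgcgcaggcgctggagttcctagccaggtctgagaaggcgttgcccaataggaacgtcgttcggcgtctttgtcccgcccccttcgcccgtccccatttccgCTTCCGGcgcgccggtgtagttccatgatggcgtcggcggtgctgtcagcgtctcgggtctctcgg
In Ndufa10 neither motif was found. In Uqcrc1 the NRF1 motif starts 30 bases after the start site, and in Cox6a1 it starts 162 bases before it, with the ETS motif (on the minus strand of the printed run) 16 bases before it. Cox6a1, an anchor subunit of complex IV, was at 521 and 523 TPM in KO VOFD, 665, 535 and 529 TPM in KO CD, and 581 and 534 TPM in WT CD.

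Genes that work beside the complexes were counted from lists, and limma called 0 genes of every list in all 4 comparisons. Of the 34 tested assembly and cytochrome c genes of complexes II to V, 19 had a positive log2 fold change in KO CD against WT CD (median 0.07). Cycs, cytochrome c itself, was at 30.0 and 31.0 TPM in KO VOFD, 23.7, 25.3 and 20.3 TPM in KO CD, and 32.9 and 30.3 TPM in WT CD, below all fertile libraries in KO CD (log2 fold change -0.42, SE 0.13, BH adjusted p from limma = 0.221 in infertile against fertile). Sco2, a copper carrier for complex IV, was at 13.9, 15.4 and 16.1 TPM in KO CD, against 9.82 and 11.9 TPM in WT CD (log2 fold change 0.45, adjusted p = 0.483). The 8 further complex I assembly genes had a median of 0.12, and Acad9 had the smallest p of them (adjusted p = 0.556).

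The 78 mitochondrial ribosomal protein genes had a median of -0.02 in KO CD against WT CD, with 35 positive and 43 negative values. Mrpl42 was at 172, 175 and 137 TPM in KO CD, against 220 and 206 TPM in WT CD (log2 fold change -0.41, adjusted p = 0.457). The 34 genes of mitochondrial transcription, replication and RNA stability had a median of 0.21, with Top1mt, the mitochondrial topoisomerase, at 12.6, 15.0 and 17.8 TPM in KO CD, against 10.2 and 9.97 TPM in WT CD (log2 fold change 0.53, adjusted p = 0.458). The 14 tested regulators of mitochondrial biogenesis had a median of 0.20, near the 0.19 of all genes, and Pprc1, a coactivator, was at 12.3, 19.6 and 20.9 TPM in KO CD, against 7.36 and 15.4 TPM in WT CD. For the 30 outer membrane, carrier and cristae genes the median was 0.14, and Hspe1, the mitochondrial chaperonin partner, was at 609 and 619 TPM in KO VOFD, against 466, 434 and 327 TPM in KO CD (log2 fold change 0.60, adjusted p = 0.483).

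Under median-of-ratios scaling the median turned to -0.06 for the outer membrane, carrier and cristae list, to -0.09 for the further complex I assembly genes and to -0.13 for the assembly and cytochrome c list. The enzymes that feed the chain had positive medians. Of 27 tricarboxylic acid cycle and pyruvate entry genes, 23 had a positive log2 fold change in KO CD against WT CD (median 0.26, and 0.05 after median-of-ratios scaling). Pcx, pyruvate carboxylase, was at 45.5, 40.3 and 39.3 TPM in KO CD, against 24.3 and 19.6 TPM in WT CD (log2 fold change 0.90, SE 0.22, BH adjusted p from limma = 0.273), and at 30.6 and 47.7 TPM in KO VOFD. Glycolysis genes, counted in 20 rows because Aldoa has a pair of entries, had a median of 0.35 in KO CD against WT CD (19 positive) and -0.33 in KO VOFD against KO CD (18 negative), beside 0.19 and -0.10 for all genes. In infertile against fertile all 20 were positive, or 15 after median-of-ratios scaling, and 8 had an unadjusted p under 0.05, against 15.4% of all genes. Gapdh was at 721 and 799 TPM in KO VOFD, 1014, 848 and 1074 TPM in KO CD, and 736 and 709 TPM in WT CD, higher in every infertile library (log2 fold change 0.39, SE 0.12, BH adjusted p from limma = 0.202). Of 8 tested uncoupling and alternative electron entry genes 7 were positive in KO CD against WT CD (median 0.28), led by Prodh, proline dehydrogenase (log2 fold change 0.69, adjusted p = 0.445).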

How the data were processed

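RNA of 7 mouse ovary libraries was measured by bulk sequencing. The authors deposited TPM for 34866 genes, and the submitters' processing notes name build GRCm38 but not the use of strand. From these values log2(TPM + 1) was computed, genes with at least 1 TPM in at least 2 libraries were kept (15487), and limma 3.58.1 in R 4.3.3 was fitted with a mean-variance trend, all 7 libraries and 3 group means (infertile against fertile with 2 group means), 2-sided, BH adjusted over all genes. The fit was tested on simulated data. Groups came from the sample titles.

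Symbols matched 34582 IDs, and coordinates and transcript lengths (principal transcripts) came from GENCODE M21, also GRCm38. Copies of members were sought only among annotated pseudogenes, with blastn 2.17.0 (at least 95% identity over at least 100 bases and 50% of the copy's length, mean of at least 1 TPM). Biopython 1.88 read the sequences and pandas 2.3.3 made the summaries.

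The members and all lists were chosen with earlier results of these data known. Named members are the 13 mitochondrial genes, the 3 of smallest p and the most abundant per complex, isoform pairs, assembly factors and those under 1 TPM; from each list the 3 of smallest p. Genes outside this rule (Gm6969 and the other copies) were chosen after their values were seen. Alternatives comprised pseudocounts, filters, scalings, fits and each library left out. TPM gives no depth, so no counting interval was computed.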

Additional observations from a re-analysis of the deposited data

Results flagged for a closer look

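Ndufs7, the core subunit of complex I, was at 88.2 TPM in WT CD library 2, while the other 3 fertile libraries lay between 93.9 and 94.1 TPM. The gap to the nearest library was 0.971 of the range of the 4 fertile libraries, past Dixon's critical value. Among 65 values checked this was the only such library, and chance alone flags about 1 in 20 groups.

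The pseudogene Gm6969, a copy of the member Cox7a2l that is no member itself, was at 152 TPM in the lowest of the 5 knockout libraries, against 2.37 and 3.92 TPM in WT CD. It was picked up because its signal lies outside the members and far above the wild type level.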

How the results depend on the processing

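No member passed the threshold in any of 75 alternative fits (lowest adjusted p 0.0574, in infertile against fertile without KO CD library 1), and 263 of 4444 values of uncalled named members changed sign. Genes called in KO CD against WT CD numbered 17, but 3 with no filter, 9 with protein coding genes only, 27 with the replicate block and 4 to 174 with a library left out. For KO VOFD against KO CD they numbered 7, but 4 with a pseudocount of 0.1 or with the compared groups only, and 3 to 104 with a library left out. KO VOFD against WT CD gave 2, but 7 and 4 with pseudocounts of 0.1 and 0.5, 5 with no filter or no trend, 0 with protein coding genes only, 12 with the replicate block, 21 with the compared groups only, 1 with copies merged (chosen after seeing the data) and 2 to 14 with a library left out. Infertile against fertile gave 38, but 4 with no filter, 64 with median-of-ratios scaling, 59 with quantile normalisation, 70 with protein coding genes only, 15 with the replicate block and 15 to 665 with a library left out. The highest counts came without KO CD library 1, or without KO CD library 3 for KO VOFD against WT CD. Without KO CD library 1, 22 members (21.2%) had an unadjusted p under 0.05 in KO CD against WT CD, about as large a share as among all genes, and 28 (26.9%) in infertile against fertile, beside 25.6%. Under median-of-ratios scaling the median of the mitochondrial members in KO CD against WT CD was -0.41, and that of the nuclear subunits -0.28 there (-0.14 with quantile normalisation), 0.13 in KO VOFD against KO CD, -0.17 in KO VOFD against WT CD and -0.20 in infertile against fertile. Quantile normalisation gave the mitochondrial members 0.0375 in KO VOFD against KO CD, and the WT CD share of mitochondrial TPM was 18.1% over protein coding genes only. Deviations of same-numbered libraries from their group means had correlations from -0.19 to 0.05. These cannot decide whether the numbers pair the samples, because in a group of 2 libraries the deviations mirror each other. The labels state no pairing, and KO CD library 3 stands alone under the block. The cause of these shifts was not tested, and depth is unknown.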
